A study of Mus musculus with 16 samples.

Results

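The genes described are 27 genes of cholesterol synthesis, uptake and storage, picked by name out of the 55426 genes of the deposited tables. They comprise 18 enzymes of the synthesis pathway (7 of the mevalonate and isoprenoid steps, 11 of the squalene and sterol steps), 5 genes of sterol sensing and transcription, and 4 genes of uptake, transport and storage. All 27 were found by name and had enough counts to be tested, as did 18833 genes in all. Poly(A) RNA was sequenced from ovaries of C57BL/6NHsd females, 1 ovary per mouse, in 4 groups of 4 mice. The On T group was injected under the skin each week with testosterone enanthate (0.9 mg), a slowly released ester of the hormone, started at 9 to 10 weeks of age and given for 6 weeks, and was collected at 16 weeks of age. The Post T group had the same 6 weeks of injections, which were then stopped, and was collected 4 cycles after cycling had returned, when the mice were 24 to 28 weeks old. Controls of matched age, a separate group for On T and for Post T, received the sesame oil vehicle alone. All mice were collected in diestrus.

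Cholesterol is built from acetyl-CoA through mevalonate, isoprenoids, squalene and lanosterol. When membrane sterol is low, SCAP carries the SREBP transcription factors out of the endoplasmic reticulum, where INSIG proteins otherwise hold them back, and the released factors act on sterol regulatory elements in the promoters of the synthesis genes. In the ovary, theca and luteal cells turn cholesterol into steroids, and rodent luteal cells take much of it from high-density lipoprotein through the receptor SR-BI and keep a store as cholesteryl ester.

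RefSeq promoter windows were matched by symbol for 22 of the 27 genes. They were searched on both strands for the core of the sterol regulatory element, TCACNCCAC, and for the CCAAT box, bound by the factor NF-Y, which acts together with SREBP at many sterol genes. An exact element core was found in 1 of the 22 genes (4.55%), Hmgcs1, beside 1.44% of the 27025 genes in the RefSeq table. With at most 1 of its 8 fixed letters changed, a match was found in 9 of 22 (40.9%) beside 26.7% of all genes. A CCAAT box was found in 19 of 22 (86.4%) beside 41.1% of all genes, and in 14 of the 15 synthesis enzymes with a window. A gene with several windows counts if any of them matches. Counted by window, the box was in 20 of 31 member windows (64.5%) beside 37.4% of all windows. The 4 stretches shown from the genes with the widest and the narrowest range of level across libraries, among those with a single RefSeq start and no annotated exon in the 150 bases before it. Each is the 150 bases before the start, 5′ to 3′ along the gene, on GRCm38.p6, from RefSeq, with CCAAT (or ATTGG, the same box read on the other strand) and the sterol element core in capitals.
Mvd, chr8:122443423-122443572, minus strand: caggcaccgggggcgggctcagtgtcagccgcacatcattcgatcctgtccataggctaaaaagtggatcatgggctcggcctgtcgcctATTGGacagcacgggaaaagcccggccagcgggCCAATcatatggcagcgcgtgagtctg
Hmgcs1, chr13:119690201-119690350, plus strand: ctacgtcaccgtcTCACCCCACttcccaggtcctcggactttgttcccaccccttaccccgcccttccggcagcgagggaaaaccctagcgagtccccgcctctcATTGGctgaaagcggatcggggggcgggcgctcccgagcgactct
Ebp, chrX:8193513-8193662, minus strand: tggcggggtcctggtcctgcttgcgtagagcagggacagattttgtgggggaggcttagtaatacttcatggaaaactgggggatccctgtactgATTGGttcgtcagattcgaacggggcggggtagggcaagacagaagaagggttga
Lbr, chr1:181842402-181842551, minus strand: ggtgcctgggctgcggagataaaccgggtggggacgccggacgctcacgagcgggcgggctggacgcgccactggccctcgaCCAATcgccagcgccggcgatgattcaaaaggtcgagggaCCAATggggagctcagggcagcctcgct
The Mvd, Hmgcs1 and Ebp stretches lie outside the annotated genes, directly before or close to their starts, and the Lbr stretch lies in an intron of a longer annotated Lbr transcript. The highest library exceeded the lowest 10.2-fold for Mvd and 9.98-fold for Hmgcs1, against 2.22-fold for Ebp and 1.97-fold for Lbr, so the CCAAT box was present at both ends of that range. A match describes letters and not a bound site, and no binding was measured.

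Library totals ran from 26598055 to 52659637 expected counts, and levels below are CPM, the counts scaled to library size and composition. The 8 granulosa, 8 luteal, 6 oocyte and 6 theca marker genes were all measured in these ovaries, and the 4 oviduct markers summed to 0.722 to 7.70 CPM. Adipoq, the defining adipocyte marker, ranged from 0 to 6.29 CPM. The 8 adipocyte markers summed to 35.1 to 101.8 CPM in the On T controls and 15.7 to 56.6 CPM in On T. Of these, 6 were tested, and all 6 had negative estimates in On T (median log2 fold change -1.47, 0 called). In Post T 3 were positive and 3 negative, with 0 called. Luteal, macrophage, theca and stromal markers differed between groups. Of the 7 stromal markers, 3 were higher and 2 lower in On T. On T library 2 had a granulosa marker sum of 2387 CPM, against 6311 to 8805 CPM in the other On T libraries. Its surface epithelium marker sum was 34.0 CPM against 81.4 to 233.7 CPM, and its stromal marker sum, 3708 CPM, was the highest of all libraries. The 6 theca markers summed to 3976 to 5354 CPM in Post T and 1901 to 2607 CPM in its controls, with 2 of 6 called higher (Aldh1a1 and Insl3). Their part in the results below was not tested. In bulk tissue, fewer cells of a type and less RNA per cell cannot be told apart.

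On the TPM scale, which accounts for gene length, the scavenger receptor Scarb1 was the most abundant member in the On T controls, at 454 ± 68.3 TPM (SD, n = 4). Fdps followed at 261 ± 73.9 TPM, the esterifying enzyme Soat1 at 242 ± 19.2 TPM and Hmgcs1 at 174 ± 66.2 TPM. The ranges of 1 SD around the means of Fdps, Soat1 and Hmgcs1 overlapped. These 3 were measured in the same libraries, and their order was not tested. The lowest levels were those of Lipe at 17.0 ± 0.669 TPM, Lbr at 16.6 ± 1.39 TPM and Stard4 at 15.9 ± 6.58 TPM.

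During testosterone, no member passed the test against the On T controls. With edgeR's quasi-likelihood test and Benjamini-Hochberg adjustment over all genes, 0 of 27 were called at an adjusted p below 0.05 in either direction, where 9.27% of all genes tested were called (4.24% higher, 5.03% lower). DESeq2 also called 0. By edgeR, 3 of the 27 members had an unadjusted p under 0.05, beside 4194 of the 18833 genes tested. The estimate was negative for 23 of 27, with a median log2 fold change of -0.22 beside -0.01 for all genes, and -0.38 for the 18 enzymes. The groups did not overlap for 2 of 27 members, Lbr and Ebp, beside 15.1% of all genes.

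Scarb1, which encodes SR-BI, had the most negative estimate of the members on testosterone. It was at 719, 868, 659 and 793 CPM in On T control libraries 1 to 4, and at 315, 231, 697.5 and 246 CPM in On T libraries 1 to 4. On T libraries 1, 2 and 4 lay below every control, and On T library 3 lay within the control range. The log2 fold change was -1.03 (SE 0.38, adjusted p = 0.1104 by edgeR). Without On T library 3 it was -1.51 with an edgeR adjusted p of 0.0117. Scarb1 was then the 1 member called lower, beside 818 of all genes. Because this was the 1 On T library within the control range, leaving it out could only widen the difference. In 16 of the 18 alternative analyses Scarb1 was not called. On T library 3 had the highest luteal marker sum of its group, 7853 CPM against 4475 to 5463 CPM in the other On T libraries and 11090 to 12680 CPM in the On T controls. The part of the luteal markers in the Scarb1 difference was not tested.

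Ebp, the sterol isomerase, was at 32.6, 42.0, 33.5 and 38.2 CPM in the On T controls and at 26.4, 25.5, 28.8 and 26.3 CPM on testosterone. Every On T library was lower than every control. The log2 fold change was -0.45 (SE 0.16, adjusted p = 0.0991 by edgeR). Lbr, which encodes the lamin B receptor and carries a sterol reductase activity, was at 37.4, 38.5, 40.5 and 43.5 CPM in the controls and at 44.1, 49.5, 53.5 and 47.7 CPM on testosterone. Every On T library was higher than every control, with a log2 fold change of 0.29 (SE 0.12, adjusted p = 0.156 by edgeR). Neither passed the threshold. Fdps at -0.81 (SE 0.39), Mvd at -0.80 (SE 0.49), Hmgcs1 at -0.74 (SE 0.42) and Dhcr7 at -0.69 (SE 0.45) had estimates of similar size on the log2 scale with edgeR adjusted p from 0.232 to 0.407, and their groups overlapped.

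**Figure D1:**
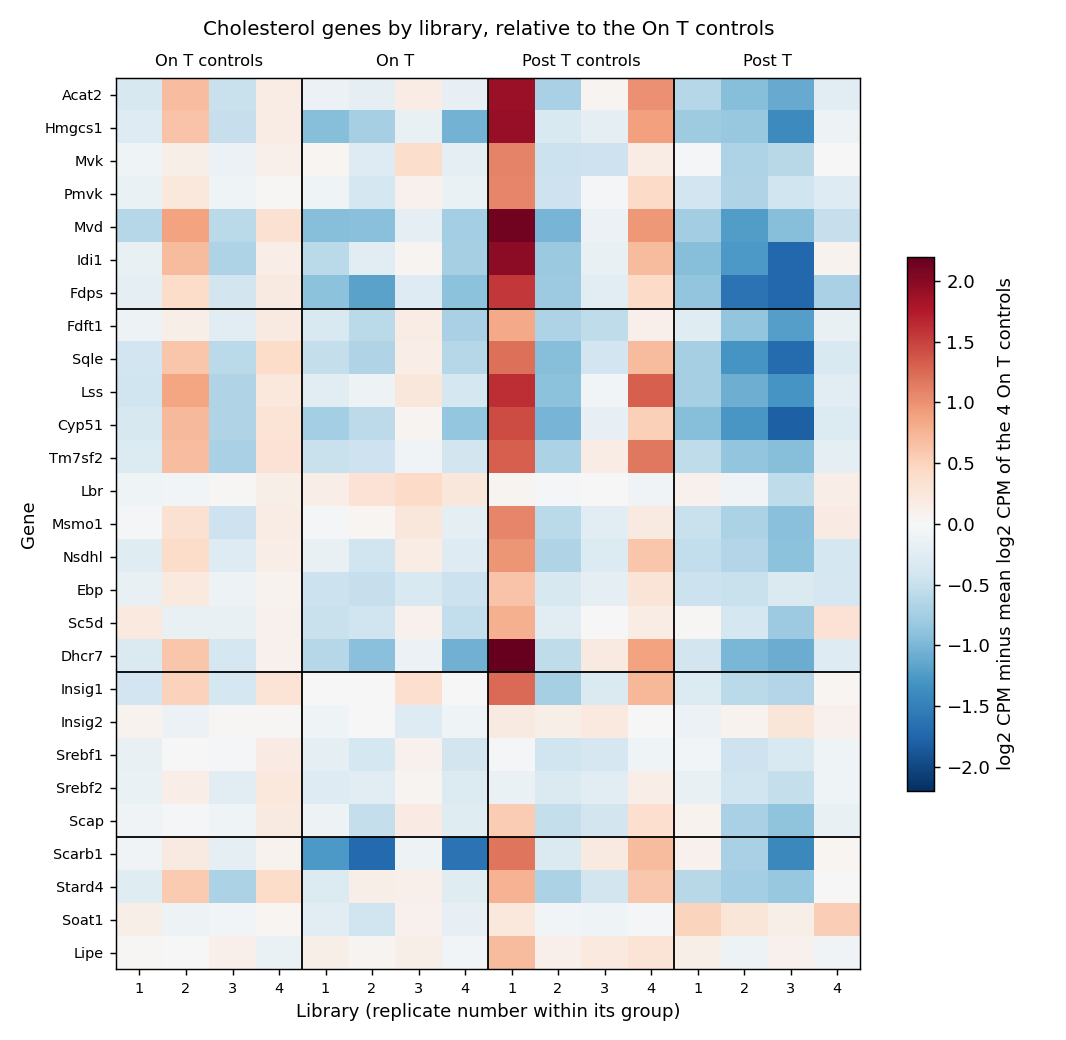
Colour gives the log2 CPM of each of the 27 genes (rows, by role from top to bottom: mevalonate and isoprenoid steps, squalene and sterol steps, sensing and transcription, uptake and storage) in each of the 16 libraries (columns), minus the mean of the 4 On T controls. Post T control library 1 is the reddest column, highest of 16 for 17 of 18 enzymes, and Post T library 3 is lowest of 16 for 14 of 18, while Insig2, Srebf1 and Srebf2 stay near 0 throughout.

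After testosterone was stopped, 12 of the 27 members were lower than in the Post T controls and 0 were higher (edgeR's quasi-likelihood test, Benjamini-Hochberg adjusted over all genes). Among all genes tested, 12.3% were called, 4.81% lower and 7.49% higher. All 12 were among the 18 synthesis enzymes, and they fell by 0.55 to 1.79 on the log2 scale. DESeq2 called 14 lower and 1 higher, where it called 1599 of all genes higher. By edgeR, 19 of the 27 members had an unadjusted p under 0.05, beside 4306 of the 18833 genes tested. The median log2 fold change was -0.79 over the 27 members and -1.30 over the 18 enzymes, beside -0.01 over all genes. The estimate was negative for all 18 enzymes, beside 9745 of the 18833 genes tested. In none of the 27 members, however, were the Post T and control groups free of overlap, where 16.5% of all genes had groups that did not overlap. The count depended on Post T control library 1. Without it, 1 of 27 members, Fdps, was still called lower, beside 759 of the 19097 genes then tested. The enzymes' median was then -0.83, beside 0.02 over all genes. All 18 estimates remained negative, from -1.17 for Lss to -0.01 for Lbr. The enzymes varied together over the same libraries, so the 18 signs are not 18 separate observations.

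In the mevalonate and isoprenoid steps, 6 of 7 enzymes fell after testosterone. Acat2, which joins 2 acetyl-CoA in the cytosol, was at 179, 29.3, 49.9 and 96.4 CPM in Post T control libraries 1 to 4 and at 31.3, 25.1, 22.4 and 41.1 CPM in Post T libraries 1 to 4. Its log2 fold change was -1.56 (SE 0.41, adjusted p = 0.0178 by edgeR). Control libraries 1, 3 and 4 lay above every Post T library and control library 2 lay inside their range. Hmgcs1, the synthase that makes HMG-CoA, was at 1405, 296, 323 and 694 CPM in the controls and at 217, 209, 141 and 345 CPM in Post T. Its log2 fold change was -1.58 (SE 0.43, adjusted p = 0.0207 by edgeR). Only Post T library 4 reached into the control range. Mvd, which makes isopentenyl diphosphate, was at 136, 15.4, 28.7 and 60.1 CPM in the controls and at 18.3, 13.3, 16.3 and 21.9 CPM in Post T. Its log2 fold change was -1.78 (SE 0.50, adjusted p = 0.0267 by edgeR), and control library 2 again lay among the Post T values.

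Fdps, which makes farnesyl diphosphate, the branch point to sterols and to protein prenylation, was at 559.7, 109.8, 163 and 255 CPM in the controls and at 104, 62.0, 57.7 and 116 CPM in Post T. It fell 3.19-fold (log2 fold change -1.68, SE 0.40, adjusted p = 0.00899 by edgeR). The overlap rested on a single pair of libraries, Post T library 4 at 116 and control library 2 at 109.8 CPM. Fdps was past the threshold in all 18 alternative analyses, including without control library 1, where the log2 fold change was -1.03 (adjusted p = 0.0383 by edgeR). Idi1, the isomerase ahead of it, was at 410, 59.6, 93.3 and 169 CPM in the controls and at 54.4, 43.5, 31.7 and 111 CPM in Post T, with a log2 fold change of -1.60 (SE 0.50, adjusted p = 0.0454 by edgeR). Pmvk, the second kinase of the pathway, was at 39.4, 13.6, 18.2 and 25.1 CPM in the controls and at 13.9, 11.7, 13.7 and 15.3 CPM in Post T, with a log2 fold change of -0.81 (SE 0.23, adjusted p = 0.0283 by edgeR). Mvk, the first kinase, did not pass, at -0.52 (SE 0.28, adjusted p = 0.295 by edgeR). Without control library 1 its estimate was -0.05.

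**Figure D2:**
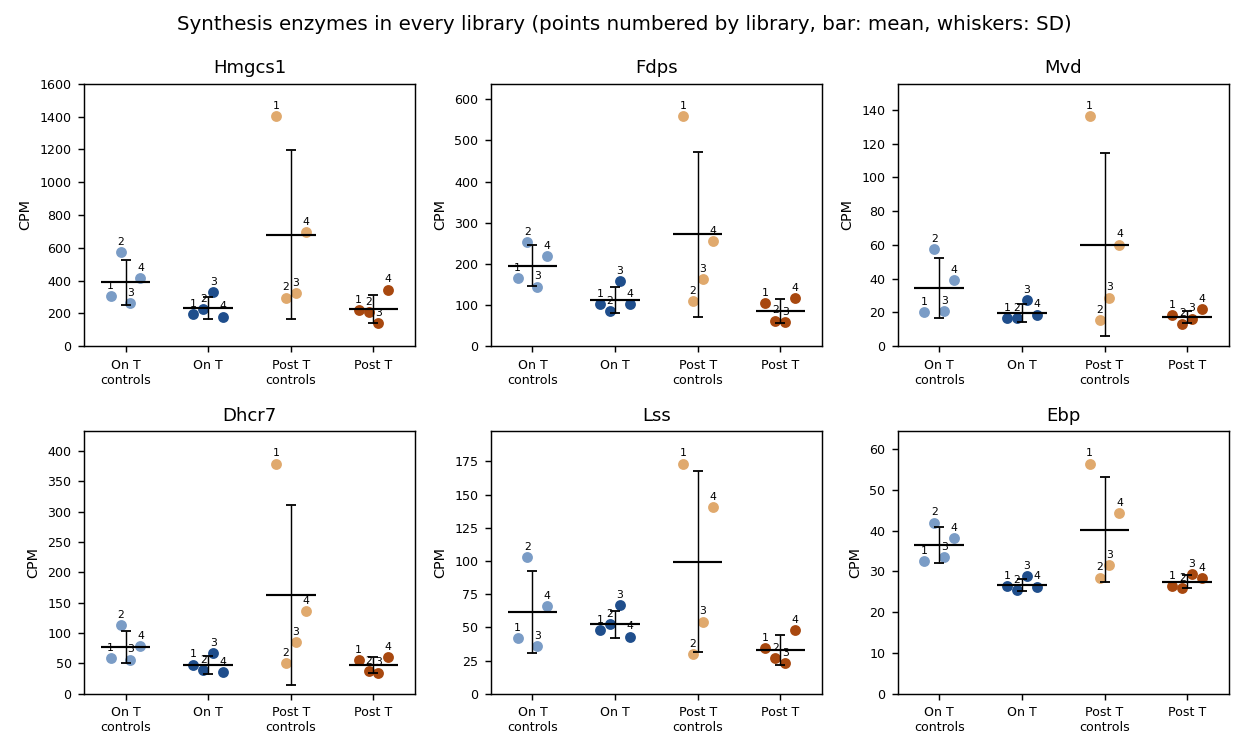
Each panel gives the level (CPM, linear axis from 0) of 1 synthesis enzyme in the 16 libraries by group, with points numbered by library, a bar at the group mean and whiskers of 1 SD. Post T control library 1 stands above all other libraries in each panel, for example at 1405 CPM for Hmgcs1, while Post T control library 2 (296 CPM) lies within the Post T range.

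In the squalene and sterol steps, 6 of 11 enzymes fell. Dhcr7, the reductase of the last step, was at 379, 50.0, 84.8 and 137 CPM in the controls and at 55.7, 37.0, 34.7 and 60.4 CPM in Post T. Its log2 fold change was -1.79 (SE 0.46, adjusted p = 0.0158 by edgeR), and -0.93 without control library 1 (adjusted p = 0.0816). Control library 2 lay between the Post T libraries. Lss, which closes the sterol rings to lanosterol, was at 173, 30.1, 54.3 and 141 CPM in the controls and at 34.2, 26.9, 22.9 and 47.9 CPM in Post T. Its log2 fold change was -1.59 (SE 0.45, adjusted p = 0.0258 by edgeR). Cyp51, the lanosterol demethylase, was at 374, 68.4, 122 and 200.1 CPM in the controls and at 72.2, 57.1, 39.8 and 112 CPM in Post T. Its log2 fold change was -1.44 (SE 0.44, adjusted p = 0.0410 by edgeR). For Lss and Cyp51, control libraries 1, 3 and 4 lay above every Post T library and control library 2 did not.

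Tm7sf2, a sterol reductase with the same activity as Lbr, was at 48.1, 11.8, 21.6 and 42.9 CPM in the controls and at 13.1, 10.6, 10.1 and 16.5 CPM in Post T (log2 fold change -1.30, SE 0.36, adjusted p = 0.0234 by edgeR). Lbr itself was at 41.5, 38.9, 39.7 and 37.9 CPM in the controls and at 42.6, 37.8, 27.2 and 43.9 CPM in Post T, with a log2 fold change of -0.06 (SE 0.12, adjusted p = 0.842 by edgeR). These reductases of the same step thus had different values in the same libraries, and the difference between them was not tested. Nsdhl, of the removal of the methyl groups at carbon 4, was at 71.7, 23.2, 29.7 and 56.2 CPM in the controls and at 25.3, 23.4, 19.6 and 28.0 CPM in Post T (log2 fold change -0.91, SE 0.28, adjusted p = 0.0411 by edgeR). Ebp was at 56.5, 28.5, 31.5 and 44.4 CPM in the controls and at 26.3, 25.9, 29.3 and 28.3 CPM in Post T (log2 fold change -0.55, SE 0.16, adjusted p = 0.0335 by edgeR). The Post T values of Ebp were close together, and control library 2 was the only control among them.

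The other 5 sterol-step enzymes were not called. Sqle, squalene epoxidase, was at 217, 48.7, 69.5 and 151.5 CPM in the controls and at 56.5, 38.0, 29.0 and 73.5 CPM in Post T, with a log2 fold change of -1.30 (SE 0.42, adjusted p = 0.0508 by edgeR). It passed the threshold in 7 of 18 alternative analyses. Fdft1, squalene synthase, was at -0.62 (SE 0.30), Msmo1, the methylsterol monooxygenase, at -0.67 (SE 0.30), and Sc5d, the sterol desaturase, at -0.38 (SE 0.23), with edgeR adjusted p from 0.183 to 0.378.

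**Figure D3:**
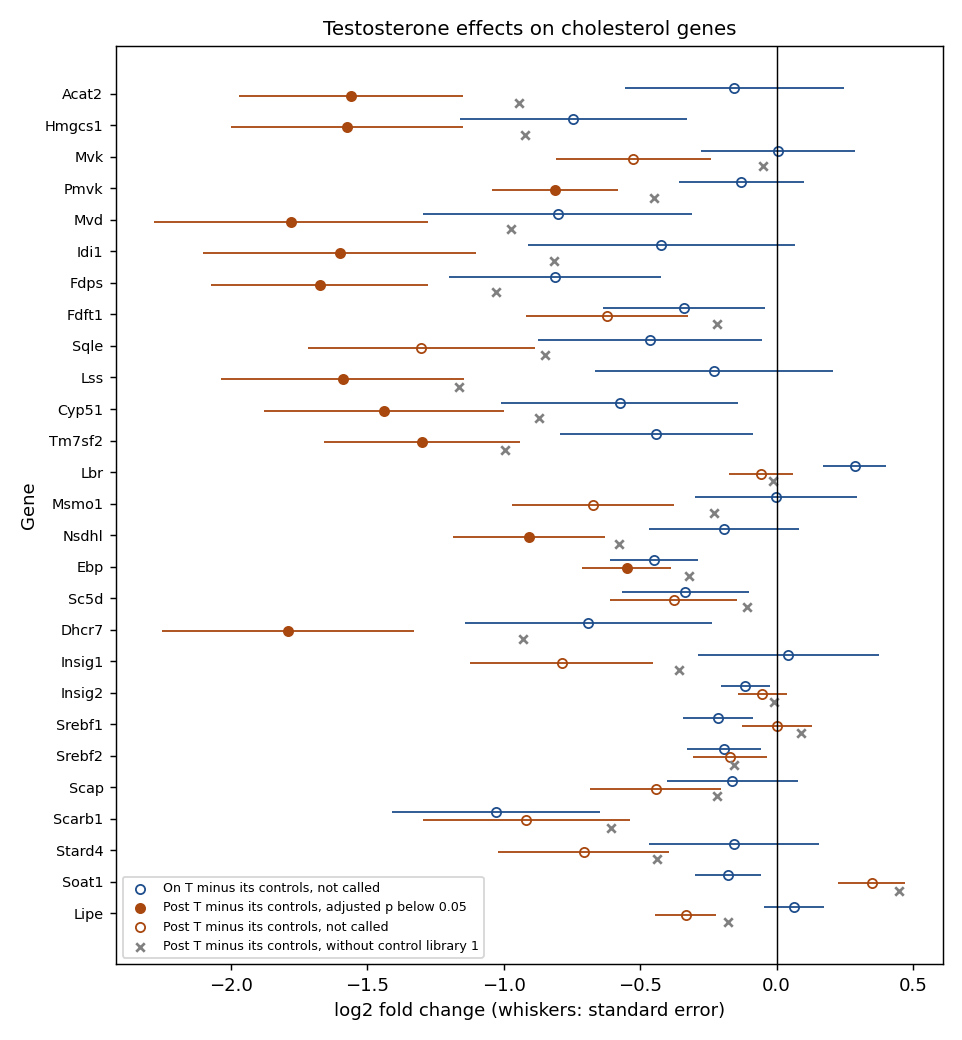
Points give the log2 fold change of each gene on testosterone (blue) and after it (brown) against its own controls, whiskers the standard error, and filled points an edgeR adjusted p below 0.05; crosses give the Post T value without control library 1. The 12 filled points are all brown and negative, and every enzyme's cross lies nearer to 0 than its brown point.

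Several libraries decide the Post T count. It was 1 without control library 1, 4 without control library 4, 3 without Post T library 1, 1 without Post T library 2 and 1 without Post T library 3. Among all genes, 759, 612, 647, 655 and 685 were called lower in those fits, in the same order, beside 905 with all libraries. The member count was 15 without control library 2, 13 without control library 3 and 11 without Post T library 4. These last counts are given without the number of all genes called lower in the same fits. Fdps was the 1 gene still called without control library 1. Fitted on the 8 Post T cohort libraries alone, 3 members and 761 of all genes were called lower.

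The synthesis enzymes varied widely between mice of a single group. Summed over the 18 enzymes, the level was 1505, 2402, 1283 and 1960 CPM in On T control libraries 1 to 4 and 1196, 1211, 1749 and 1100 CPM in the On T libraries. It was 4968, 1151, 1519 and 2627 CPM in the Post T controls and 1160, 919, 738 and 1564 CPM in the Post T libraries. The highest library exceeded the lowest 6.73-fold, and the Post T controls alone held the highest library of all and 2 libraries, 2 and 3, within the Post T range. Among 10896 genes with a mean of at least 10 CPM, the median SD of log2(CPM + 0.5) within the Post T controls was 0.16, and it was 0.95 for the 18 enzymes. In that group 17 of the 18 enzymes had an SD above the 90th percentile of these genes. The same held for 15 of 18 enzymes in Post T, 12 in the On T controls and 7 in On T. Idi1 ranged most over the 16 libraries, 12.9-fold, followed by Dhcr7 at 10.9-fold, Mvd at 10.2-fold, Hmgcs1 at 9.98-fold and Fdps at 9.70-fold.

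The enzymes shared the order of the libraries. Post T control library 1 was the highest of its group for 18 of 18 enzymes and control library 2 the lowest for 17. Post T library 4 was the highest for 17 and library 3 the lowest for 14. On T library 3 was the highest of its group for 18 of 18, and On T control library 2 for 15. The sum of the 8 luteal markers was 18210, 8923, 9710 and 14650 CPM in the Post T controls and 8719, 5718, 5401 and 9149 CPM in Post T. In both groups it ranked the 4 libraries in the same order as the enzyme sum. The granulosa marker sum had that order in the Post T controls and the theca marker sum in Post T, where the macrophage marker sum had the reverse order. On the TPM scale the granulosa sum was instead highest in Post T control library 4, at 3257 TPM against 3079 TPM in library 1. The luteal sums of Post T control libraries 1 and 4 were close on that scale, at 11630 and 11540 TPM, and the luteal order was kept. In the Post T controls the theca marker sum was lowest in library 1. In the On T controls and in On T the order of 2 neighbouring libraries differed between the luteal and enzyme sums. By CPM the adipocyte, oocyte and oviduct marker sums had the enzyme order in On T, and the oviduct sum also in the On T controls. The oocyte sums of On T libraries 1 to 3 differed little, at 204.5, 205.9 and 208.3 CPM, and the On T oviduct sums were 0.722 to 6.56 CPM. On the TPM scale the adipocyte and oocyte sums were highest in On T library 2 and did not have the enzyme order. How often such orders match by chance was not tested. Of the 8 luteal markers, 5 were lower in each treated group than in its controls, and 3 (Akr1c18, Ptgfr and Sfrp4) in Post T without control library 1. Akr1c18, which inactivates progesterone in the corpus luteum, was at 105 to 189 CPM in the On T controls and 0.459 to 1.04 CPM in On T, and at 113 to 161 CPM in the Post T controls and 0.113 to 0.270 CPM in Post T. The part of these markers in the enzyme levels was not tested.

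Within Post T the order of the enzyme sum was also the order of depth, and in the Post T controls it was not. Post T control library 1, the highest in enzymes, was the shallowest of the 16 and came from a mouse of 24 weeks. Post T library 4, the highest of its group, was the deepest of that group and also came from a mouse of 24 weeks, and library 3, the lowest, was the shallowest and came from a mouse of 28 weeks. Among the controls the lowest, library 2, came from a mouse of 26 weeks and the 28-week library 3 was higher. With age as a covariate, edgeR also called Sqle (adjusted p = 0.0174) and Msmo1 (adjusted p = 0.0492) lower in Post T. The slope of the enzyme levels on age and the part of depth were not tested.

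**Figure D4:**
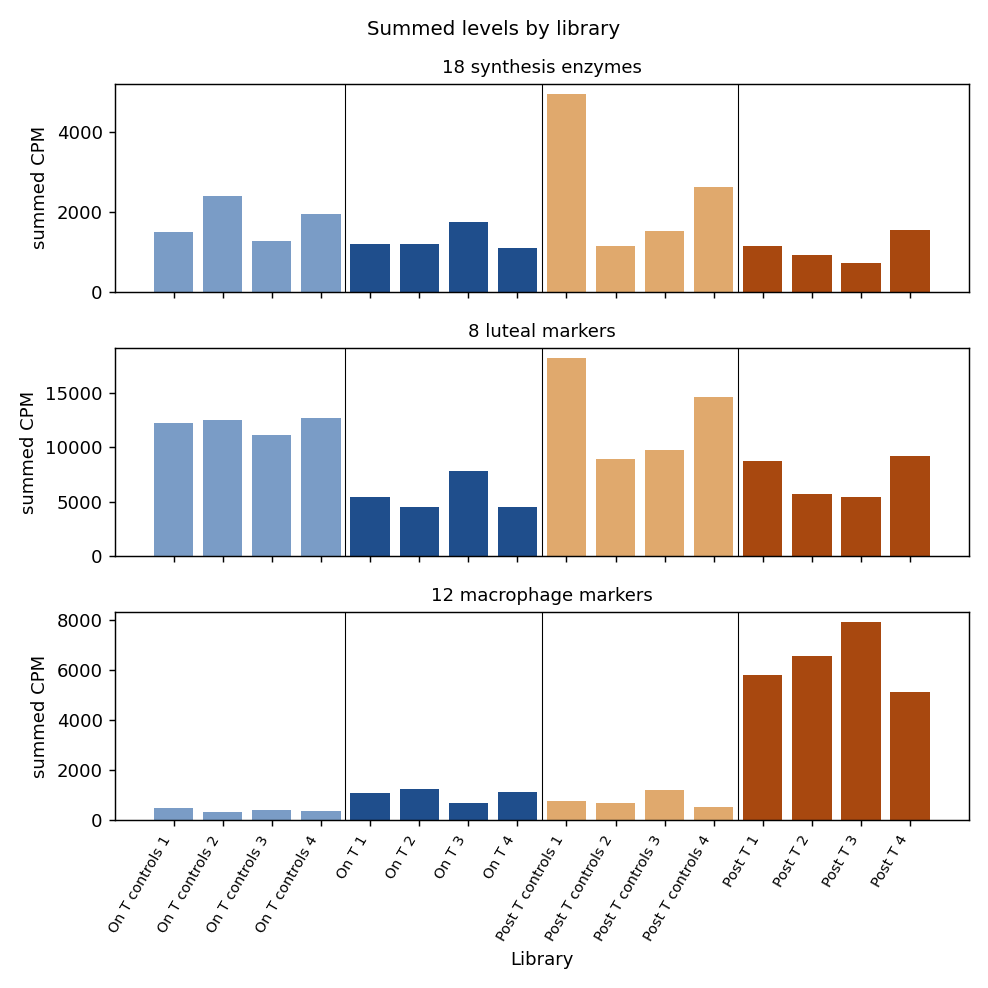
Bars give the summed CPM (linear axes from 0) of the 18 synthesis enzymes, the 8 luteal markers and the 12 macrophage markers in each library. Post T control library 1 has the highest enzyme sum (4968 CPM) and luteal sum (18210 CPM), and the macrophage sum is highest in the 4 Post T libraries, 5127 to 7918 CPM.

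None of the 5 genes that sense sterol and drive the pathway was called in either comparison. Srebf2, which encodes SREBP2, the main activator of the synthesis genes, was at 189.5, 167, 178 and 231 CPM in the Post T controls and at 186, 153, 145 and 197 CPM in Post T (log2 fold change -0.17, SE 0.14, adjusted p = 0.523 by edgeR). Srebf1 was at 92.5, 70.5, 73.4 and 89.1 CPM in the controls and at 91.6, 69.3, 75.7 and 89.1 CPM in Post T, a log2 fold change of 0.00 (SE 0.13). Insig2 had the narrowest range of all members over the 16 libraries, 1.47-fold, followed by Srebf1 at 1.56-fold and Srebf2 at 1.70-fold. Insig1, itself a target of SREBP, was at 288, 73.7, 97.4 and 202 CPM in the Post T controls and at 98.2, 80.7, 77.9 and 126 CPM in Post T. Its log2 fold change was -0.79 (SE 0.33, adjusted p = 0.159 by edgeR), and its libraries stood in the same order as the enzyme sum in both groups. Scap was at -0.44 (SE 0.24, adjusted p = 0.299 by edgeR). These are transcript levels, and the cleavage and location of the SREBP proteins were not measured.

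Of the 4 genes of uptake, transport and storage, none passed the test after testosterone. All 4 had an unadjusted edgeR p under 0.05, as did 4306 of the 18833 genes tested. Soat1, which esterifies cholesterol for storage, was at 789, 643, 629.9 and 664 CPM in the controls and at 947, 806, 738 and 980.1 CPM in Post T. It was the member with the most positive estimate, a log2 fold change of 0.35 (SE 0.12, adjusted p = 0.0778 by edgeR). All Post T libraries lay above control libraries 2 to 4, and the groups overlapped through control library 1. Without that library Soat1 was called higher, at 0.45 (adjusted p = 0.0244 by edgeR). Lipe, hormone-sensitive lipase, which releases cholesterol from its esters, was at 53.5, 35.6, 38.6 and 41.0 CPM in the controls and at 36.3, 30.7, 35.2 and 31.5 CPM in Post T (log2 fold change -0.33, SE 0.11, adjusted p = 0.0608 by edgeR). Lipe is also expressed in fat, and the 8 adipocyte markers summed to 10.6 to 32.7 CPM in the controls and 10.1 to 52.9 CPM in Post T. Their part in the Lipe values was not tested.

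Scarb1 was at 1706, 604, 872 and 1222 CPM in the Post T controls and at 806, 462, 282 and 783 CPM in Post T (log2 fold change -0.92, SE 0.38, adjusted p = 0.148 by edgeR). Post T libraries 2 and 3 lay below every control, and libraries 1 and 4 lay above control library 2. Stard4, which moves cholesterol between membranes, was at 84.5, 31.0, 37.5 and 75.6 CPM in the controls and at 32.6, 29.7, 28.0 and 49.4 CPM in Post T (log2 fold change -0.71, SE 0.31, adjusted p = 0.184 by edgeR).

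**Figure D5:**
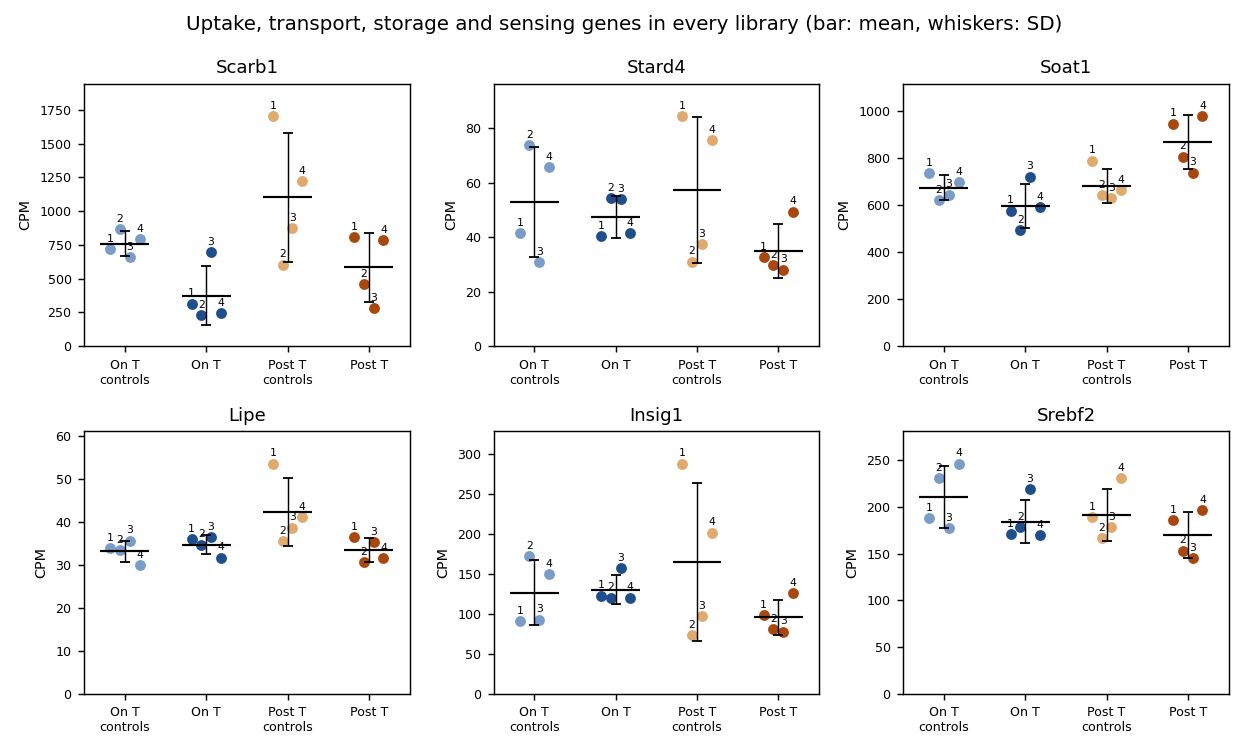
Each panel gives the level (CPM, linear axis from 0) of 1 gene of uptake, transport, storage or sensing in the 16 libraries by group, with points numbered by library, a bar at the group mean and whiskers of 1 SD. Scarb1 is low in On T libraries 1, 2 and 4 (231 to 315 CPM) and not in library 3 (697.5 CPM), and Soat1 is highest in Post T libraries 1 and 4.

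The Post T and On T effects were compared directly by the difference of the effects, and 0 of 27 members were called, where 3.25% of all genes were called (edgeR's quasi-likelihood test). DESeq2 called 0 as well. By edgeR, 4 of the 27 members had an unadjusted p under 0.05, beside 2692 of the 18833 genes tested. The difference was negative for all 18 enzymes, with a median of -0.83 on the log2 scale. Without Post T control library 1 it was negative for 15 and positive for 3, Fdft1, Ebp and Sc5d, with a median of -0.28. Acat2 had the most negative difference, -1.40 (SE 0.57, adjusted p = 0.252 by edgeR), and Soat1 the most positive, 0.53 (SE 0.17, adjusted p = 0.130 by edgeR). That 12 enzymes were called after testosterone and 0 during it therefore does not by itself show that the effects differ. Both effects subtract their own controls, and those controls were compared as well. Between the older and the younger controls 0 members were called, and 0 of all genes (0%), by edgeR, with 2 members and 1892 genes at an unadjusted p under 0.05, while DESeq2 called 0 members, and 133 genes higher and 40 lower. The estimate was positive for 17 of 18 enzymes, with a median log2 difference of 0.36, and Dhcr7 was at 1.08 (SE 0.45, adjusted p = 0.427 by edgeR). Without Post T control library 1 it was positive for 7 and negative for 11 of the 18, with a median of -0.04, and Dhcr7 was at 0.25.

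Other genes of the pathway were read from lists chosen by function. The list counts below stand beside these shares of all genes tested. In Post T 7.49% were higher and 4.81% lower, and in On T 4.24% were higher and 5.03% lower. Of 10 further genes of the sterol and isoprenoid pathway, 2 were lower in Post T and 1 in On T, and Hsd17b7 was lower in both. Hsd17b7, which reduces the 3-keto group in cholesterol synthesis and is abundant in the corpus luteum, was at 1280, 74.1, 273 and 949.9 CPM in the Post T controls and at 39.6, 29.4, 29.5 and 59.7 CPM in Post T. It fell by 4.02 on the log2 scale (SE 0.84, adjusted p = 0.00357 by edgeR), its groups did not overlap, and it was still called without control library 1. On testosterone it fell by 2.71 (SE 0.80, adjusted p = 0.0420 by edgeR), from 45.0 to 644 CPM in the controls to 30.1 to 50.3 CPM. Of 14 genes of fatty acid synthesis, which SREBP1 drives, 1 was lower in each comparison. It was Acss2, an acetyl-CoA synthetase, in Post T (log2 fold change -1.29, SE 0.30, adjusted p = 0.00765 by edgeR) and Me1, which supplies NADPH, in On T (-0.86, SE 0.19, adjusted p = 0.00814 by edgeR). The median of the list was -0.05 in Post T.

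Of 14 genes of lysosomal export, efflux and oxysterols, 8 were higher and 0 lower in Post T, with a median log2 fold change of 0.40 beside -0.01 for all genes. Lipa, lysosomal acid lipase, was at 85.4, 109, 110.0 and 90.9 CPM in the Post T controls and at 281, 306, 344 and 271 CPM in Post T, a rise of 1.60 on the log2 scale (SE 0.13, adjusted p = 3.35e-07 by edgeR). The sterol exporter Abcg1 rose by 1.70 (SE 0.17, adjusted p = 2.75e-06 by edgeR) and Nr1h3, the oxysterol receptor LXR alpha, by 1.34 (SE 0.20, adjusted p = 0.000182 by edgeR). The groups did not overlap for any of these 3. On testosterone 3 of the 14 were higher, Cyp27a1 at 1.27 (SE 0.21), Apoe at 0.74 (SE 0.21) and Mylip at 0.63 (SE 0.19), and 1 was lower, Ch25h at -1.48 (SE 0.37), with edgeR adjusted p from 0.000899 to 0.0489. Of 9 genes of lipoprotein uptake, 5 were higher and 1 lower in Post T, among them Cd36, which rose by 2.18 (SE 0.20, adjusted p = 1.28e-06 by edgeR) from 47.6 to 77.2 CPM in the controls to 244.5 to 313 CPM. Lpl rose by 1.43 and Msr1 by 1.28, while Lrp8, a receptor for apolipoprotein E and reelin, fell by 2.00 (SE 0.55, adjusted p = 0.0217 by edgeR). In On T, Olr1 fell by 2.10 (SE 0.53, adjusted p = 0.0190 by edgeR).

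Of 12 genes of lipid droplets and ester hydrolysis, 3 were higher and 3 lower in Post T. Mgll rose by 2.11 (SE 0.19), Nceh1, which hydrolyses cholesteryl ester in macrophages, by 0.71 (SE 0.09) and the droplet coat gene Plin2 by 1.08 (SE 0.23). Plin5, a droplet coat gene of oxidative tissues, fell by 5.84 on the log2 scale (SE 0.71, adjusted p = 2.02e-05 by edgeR), from 71.1, 6.99, 11.6 and 26.4 CPM in the controls to 0.566, 0.505, 0.374 and 0.542 CPM in Post T. Plin4 fell by 5.02 (SE 0.65, adjusted p = 4.13e-05 by edgeR) and Soat2, the second cholesterol esterifying enzyme, by 2.74 (SE 0.53, adjusted p = 0.00193 by edgeR), from 0.812 to 2.83 CPM to 0.136 to 0.295 CPM. The same 3 were lower on testosterone, by 3.09, 3.58 and 1.72 on the log2 scale, and Nceh1 was higher by 0.31. The 12 macrophage markers summed to 532 to 1230 CPM in the Post T controls and to 5127 to 7918 CPM in Post T, with 8 of 12 higher, and to 319 to 513 CPM in the On T controls and 685 to 1257 CPM in On T. Lipa, Cd36, Plin2, Abcg1, Nceh1 and Msr1 are abundant in macrophages, and the part of these markers in their rise was not tested. Without Post T control library 1 the counts were 7 of 14 higher for efflux and 4 higher and 3 lower of 12 for droplets. They were 5 higher and 0 lower of 9 for uptake, where Lrp8 lost its call. For the sterol pathway 1 of 10, Hsd17b7, was lower, and for fatty acid synthesis 1 of 14. Of the 19097 genes tested in that fit, 1353 were higher and 759 lower.

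Some of the genes share sequence with neighbours or copies, so their counts are less certain. Fdft1 shares 18.3% of its exon bases with Ctsb on the other strand, and Ctsb averaged 3104 CPM in Post T against 934 CPM in its controls. Whether strand was used in counting is not given in the sources used here. Tm7sf2 shares 12.1% of its exon bases with Vps51 on the same strand. Of 150-base windows of the transcripts, 19.9% for Acat2, 17.9% for Fdps and 14.2% for Idi1 are found unchanged in transcripts of other genes. The gene sharing the most windows is Acat3 for Acat2 and Gm13502 for Idi1. For Fdps it is Gm43738, an annotated gene that overlaps Fdps. On GRCm38, Fdps lies at chr3:89093588-89101959 on the minus strand, Hmgcs1 at chr13:119690379-119708260 on the plus strand, Mvd at chr8:122433601-122443422 on the minus strand and Dhcr7 at chr7:143823145-143848410 on the plus strand, and all 4 are annotated as protein coding.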

How the data were processed

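Ovary RNA of 16 mice was sequenced per the labels' protocols as paired ends from poly(A) libraries made with a directional kit. RSEM 1.3.3, STAR 2.7.8a, cutadapt 2.3, FastQC 0.11.8 and GRCm38 are named in the submitters' processing notes. The deposited expected counts are the authors' RSEM estimates per gene, not normalised, and were rounded to whole numbers. The authors also deposited TPM, scaled to gene length and depth, used here for comparing genes. FPKM columns were left out. Annotation release and strand setting are not given in the sources used here.

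The model was edgeR 4.0.16 under R 4.3.3 (filterByExpr with a minimum count of 10, TMM, 1 mean per group, all 16 libraries, quasi-likelihood F test, Benjamini-Hochberg over 18833 genes, threshold 0.05). The standard error of a log2 fold change was taken as its size over the root of F. Levels are TMM-scaled CPM. The floor of 3 counts came to 0.0571 to 0.117 CPM per library and covers counting error only. Each treated group was compared with its controls, both effects with each other, and the 2 control groups with each other.

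The members, gene lists, markers and naming rule were chosen with earlier results of these data known. Every member could be named, and from each other list the 3 called genes with the smallest p per contrast, plus any needed to spell out a count of 5 or fewer. A few genes chosen by this rule are not reported here. A search of promoters with 1 changed letter was added after the exact matches had been counted.

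The alternatives tried were DESeq2 1.42.0, median-of-ratios scaling, all genes unfiltered, genes of at least 1 CPM in 4 libraries, limma 3.58.1 on log2(TPM + 1) and log2(TPM + 0.1), the 8 libraries of each comparison fitted alone, age as a covariate, the replicate number as a block, each library left out in turn, and 2 libraries (On T 2 and Post T control 1) left out together. The fit was tested on simulated data.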

Additional observations from a re-analysis of the deposited data

Results flagged for a closer look

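On T library 3 stood apart from the other 3 On T libraries in 4 members. Sqle was at 103.3 CPM there and at 59.13 to 64.78 CPM in the others. Sc5d was at 148.6 CPM against 95.8 to 103.4 CPM, Insig1 at 157.7 CPM against 120.4 to 123 CPM, and Srebf2 at 219 CPM against 169.9 to 178.1 CPM. For each, the gap to the nearest library took a larger share of the range of the group than Dixon's 95% limit for 4 samples. These were 4 of the 108 combinations of member and group screened, and chance alone passes that limit in about 5% of groups.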

How the results depend on the processing

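The direction of each called member held in every alternative run, and the number called did not. The count of members called lower in Post T went from 12 to 7 with limma on log2(TPM + 1) and 7 on log2(TPM + 0.1), in each case 6 of the 12 and Lipe, to 3 with only the 8 libraries compared, 1 with the pair On T 2 and Post T control 1 left out together, and 1 to 15 with single libraries left out. Members called higher in Post T went from 0 to 1, Soat1, with a filter of 1 CPM in 4 libraries, with DESeq2, with age as a covariate and with that pair left out, and were 0 to 1 with single libraries left out. Members called lower in On T went from 0 to 1 with only the 8 libraries compared (Ebp, adjusted p = 0.0218) and with the replicate block (Scarb1, adjusted p = 0.0323), and were 0 to 1 with single libraries left out. In the difference of effects, 0 to 1 were called higher with single libraries left out (Soat1 without On T library 3, adjusted p = 0.0403). Among all genes, the count lower in Post T went from 905 to 754 and 784 with limma. It was 761 with only the 8 libraries compared and 866 with that pair left out. The causes of these changes were not tested. Whether the replicate numbers of the labels pair the mice was not settled. Deviations of same-numbered treated and control libraries correlated at -0.02 to 0.13 in the On T cohort and 0.04 to 0.23 in the Post T cohort. Libraries of different numbers were not compared in this way, so these values cannot decide it. With the replicate block, 11 members were called lower in Post T. The depth did not limit detection of the members, which all passed the filter on low counts.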
